A study of Homo sapiens with 18 samples.

Results

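The genes described here are the cytosolic ribosomal protein genes of human pluripotent stem cells, taken as the symbols that begin with RPL or RPS followed by a number and an optional A, plus RPLP0, RPLP1, RPLP2 and RPS4X. The symbol rule found 76 genes of the 57133 in the count table, 46 of the large and 30 of the small ribosomal subunit, and all 76 were among the 17672 genes tested. The rule reads symbols and no measured value. Cytosolic ribosomal proteins with other names (such as RPSA, FAU and the ribosome-bound RACK1) lie outside the rule and are described separately.

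RNA-seq counts came from PGP1 cells, an established human induced pluripotent stem cell line. The 3 groups were wild-type cells (WT), PCGF6-KO clone KO1 and PCGF6-KO clone KO2, with 2 libraries each, 6 in all. Each clone was derived from PGP1 by CRISPR-Cas9 deletion in the first exon of PCGF6, which encodes a subunit of a variant Polycomb repressive complex, and each knockout group is 1 clone, so a difference between a clone and WT cannot be told apart from a difference between that clone and any other clone of the line. All 3 groups were grown in mTeSR1 medium on Matrigel, without a differentiation protocol or other treatment. Nothing in the labels says that the 2 libraries of a group came from separate cultures, and p-values then measure only the spread between these libraries, which may be technical. The libraries held 15877396 to 18918609 counts. PCGF6 itself had 268 and 300 counts in WT, 99 and 103 in KO1 and 187 and 159 in KO2, which was lower in both clones (log2 fold change -1.67, SE 0.14, adjusted p = 1.03e-10 in KO1; -0.77, SE 0.13, adjusted p = 1.21e-05 in KO2). A gene-level count also covers the exons outside the deletion, so it checks the deletion only in part.

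Ribosomal proteins are made in near-equal amounts, 1 copy of almost every protein per ribosome, and together with ribosomal RNA they form the small subunit, which decodes the mRNA, and the large subunit, which joins amino acids. Their mRNAs are among the most abundant and most stable of growing cells. Most of them begin with a 5′ terminal oligopyrimidine (TOP) tract, a C at the first base followed by an unbroken run of pyrimidines, through which growth signals passing by the kinase mTOR and the RNA-binding protein LARP1 set their translation and stability together.

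RefSeq windows on GRCh38.p14 were found for 61 of the 76 genes, of which 59 lie at the start site of the gene's representative transcript. Of these 59, 45 (76.3%) started with C followed by at least 4 further pyrimidines, against 679 of 14473 start sites of all genes (4.69%). The sequences of 12 genes are printed to show the tract in genes on which the results below turn, and its absence at the annotated start in others. Each runs 5′ to 3′ over 30 bases, with the annotated first base of the mRNA at position 11 and the unbroken pyrimidine run from that base in capitals.
RPS27 (chr1:153990752-153990781, + strand): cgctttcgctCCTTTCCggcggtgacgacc
RPS25 (chr11:119018324-119018353, - strand): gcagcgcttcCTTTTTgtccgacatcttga
RPL41 (chr12:56116623-56116652, + strand): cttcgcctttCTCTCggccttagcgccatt
RPL13A (chr19:49487598-49487627, + strand): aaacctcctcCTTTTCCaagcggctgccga
RPLP0 (chr12:120201092-120201121, - strand): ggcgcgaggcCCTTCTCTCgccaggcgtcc
RPL11 (chr1:23691796-23691825, + strand): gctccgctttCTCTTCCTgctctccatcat
RPS3 (chr11:75399508-75399537, + strand): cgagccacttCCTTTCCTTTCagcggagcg
RPL22 (chr1:6199576-6199605, - strand): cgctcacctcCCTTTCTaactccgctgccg
RPL3 (chr22:39319604-39319633, - strand): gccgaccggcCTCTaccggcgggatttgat
RPL10A (chr6:35468391-35468420, + strand): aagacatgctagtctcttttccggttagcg
RPL17 (chr18:49492446-49492475, - strand): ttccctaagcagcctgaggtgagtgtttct
RPS4X (chrX:72277229-72277258, - strand): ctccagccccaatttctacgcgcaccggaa
The first 8 carry the tract at the annotated start. RPL3 starts with C but has too short a run, and RPL10A, RPL17 and RPS4X start with A. In RPL10A a pyrimidine run begins shortly after the annotated first base. A start annotated a few bases off would therefore change how a gene is sorted, and the annotated starts were not tested.

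The 76 genes took a smaller share of the counts in KO1 than in the other groups. They held 4.57% and 4.38% of all counts in the WT libraries, 3.84% and 3.57% in KO1 and 4.34% and 4.06% in KO2, and the 95% Wilson interval of each share was at most 0.0103 percentage points to either side, which covers counting error only. Both KO1 libraries lay below every other library, and both KO2 libraries lay below both WT libraries, with the nearest pair (4.34% and 4.38%) closer together than the WT libraries were to each other. Large-subunit genes held 2.92% to 3.02% in WT, 2.33% to 2.52% in KO1 and 2.65% to 2.84% in KO2. Small-subunit genes held 1.46% to 1.55%, 1.24% to 1.32% and 1.40% to 1.51%. Expressed as the median over the 76 genes of each library's log2 CPM minus the WT mean, KO1 was at -0.19 and -0.29 and KO2 at 0.04 and -0.06. The median over all tested genes was at most 0.0115 above 0 in every clone library, which the scaling of the libraries largely sets. CPM are counts brought to a common library size with TMM factors, which are set so that most tested genes centre near no change. These factors were 1.027 and 1.022 in WT, 1.012 and 1.016 in KO1 and 0.965 and 0.960 in KO2. The shares are not scaled by them. KO2 lay below WT in share and near WT in CPM, so its position against the other groups depends in part on the scaling.

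**Figure D1:**
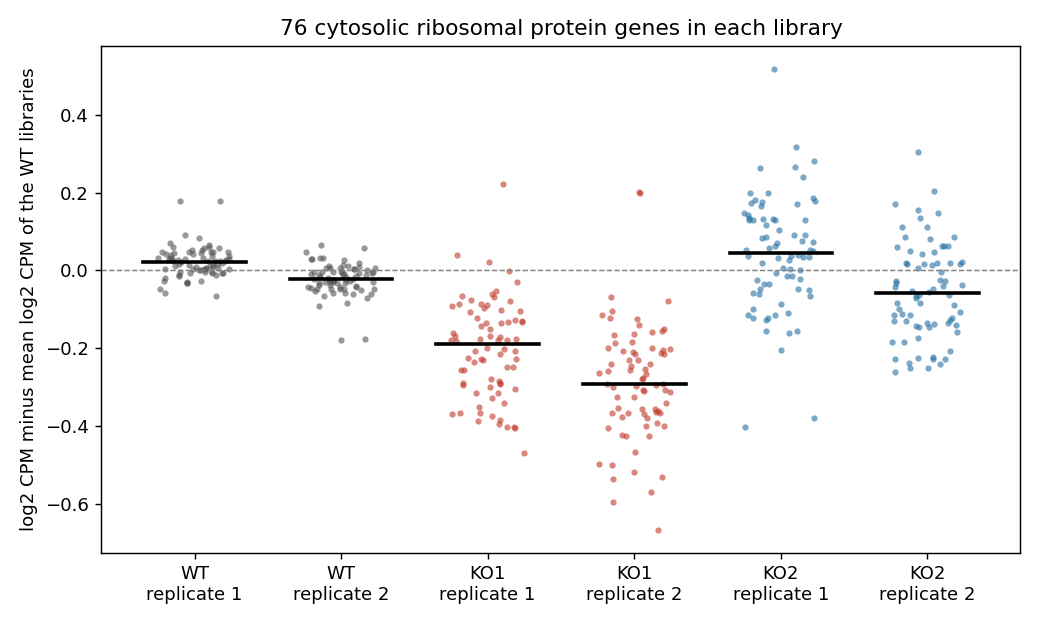
Each point is one of the 76 ribosomal protein genes in one library, as its log2 CPM minus the mean log2 CPM of the 2 WT libraries (vertical axis), with the median of the genes as a black bar. The KO1 medians lie at -0.19 and -0.29, and the KO2 medians at 0.04 and -0.06.

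The genes also moved together between the libraries of one group. The library numbered 1 was higher than the one numbered 2 for 57 of 76 genes in WT, 67 in KO1 and 72 in KO2, where all tested genes gave 50.3%, 49.3% and 48.8%, and the median difference was 0.04, 0.09 and 0.10 on the log2 scale. Within libraries numbered 1 the median difference between KO1 and WT was -0.21, and within those numbered 2 it was -0.27. The corresponding values were 0.03 and -0.04 for KO2 against WT, and 0.25 and 0.23 for KO2 against KO1.

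The first comparison asked what happened to the genes in clone KO1. Adjusted p values here and below are Benjamini-Hochberg values over all 17672 tested genes from edgeR's quasi-likelihood test, and a gene is called higher or lower at an adjusted p under 0.05. In KO1 59 of the 76 genes were lower than in WT and 0 were higher (0 at an unadjusted p under 0.05, where 27% of all tested genes were, and 0 with DESeq2), against 21.1% of all tested genes lower and 24.1% higher. The lower genes were 37 of 46 in the large and 22 of 30 in the small subunit. The median log2 fold change over the 76 genes was -0.25, a decrease with a median of -15.9%. The median of all tested genes, which the scaling holds near 0, was 0.00. Both KO1 libraries lay below both WT libraries in 71 of the 76 genes, against 35.1% of all tested genes. RPS10 lay above WT, and RPL8, RPS15 and RPS2 were among the 4 that overlapped it.

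RPS27, RPS25, RPL3, RPL41 and RPL13A were among the 6 members with the largest decreases in KO1. The other was RPL23A, at -0.45 on the log2 scale. RPS27, a zinc-finger protein of the small subunit, had 306 and 304 CPM in WT, 220.0 and 202 in KO1 and 281 and 260.5 in KO2. Its log2 fold change in KO1 was -0.53 (SE 0.06, adjusted p = 4.89e-08). RPS25, a small-subunit protein that viral internal ribosome entry sites depend on, had 577 and 539.5 CPM in WT, 430.2 and 351 in KO1 and 511 and 472 in KO2. It fell by 30% in KO1, -0.51 (SE 0.07, adjusted p = 8.91e-07) on the log2 scale. RPL3, which lies close to the site where peptide bonds form, had 2013 and 1931 CPM in WT, 1498 and 1329 in KO1 and 1770 and 1709 in KO2. RPL41, the smallest ribosomal protein, had 1007 and 929 CPM in WT, 729.9 and 669 in KO1 and 888 and 820.4 in KO2. For these 4 genes KO1 lay below WT and KO2 without overlap, and KO2 lay between KO1 and WT. Their log2 fold changes in KO1 ended with RPL3 at -0.48 (SE 0.05, adjusted p = 4.47e-08) and RPL41 at -0.47 (SE 0.06, adjusted p = 1.8e-07). RPL13A, a large-subunit protein also known for silencing inflammatory mRNAs after leaving the ribosome, had 2269 and 2198 CPM in WT, 1733 and 1540 in KO1 and 2104 and 2003 in KO2, a log2 fold change of -0.45 (SE 0.05, adjusted p = 1.26e-07).

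All changes were small. No member passed an absolute log2 fold change of 0.6 in any comparison, a size reached with an adjusted p under 0.05 by 24.8% of all tested genes in KO1, 29.4% in KO2, 23.6% over both clones and 7.87% between the clones. Leaving out KO1 replicate 1 put 1 gene past that size in KO1. The count of 59 lower genes stayed between 55 and 63 under the other normalizations, filters and tools, and between 41 and 62 when each library was left out in turn.

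**Figure D2:**
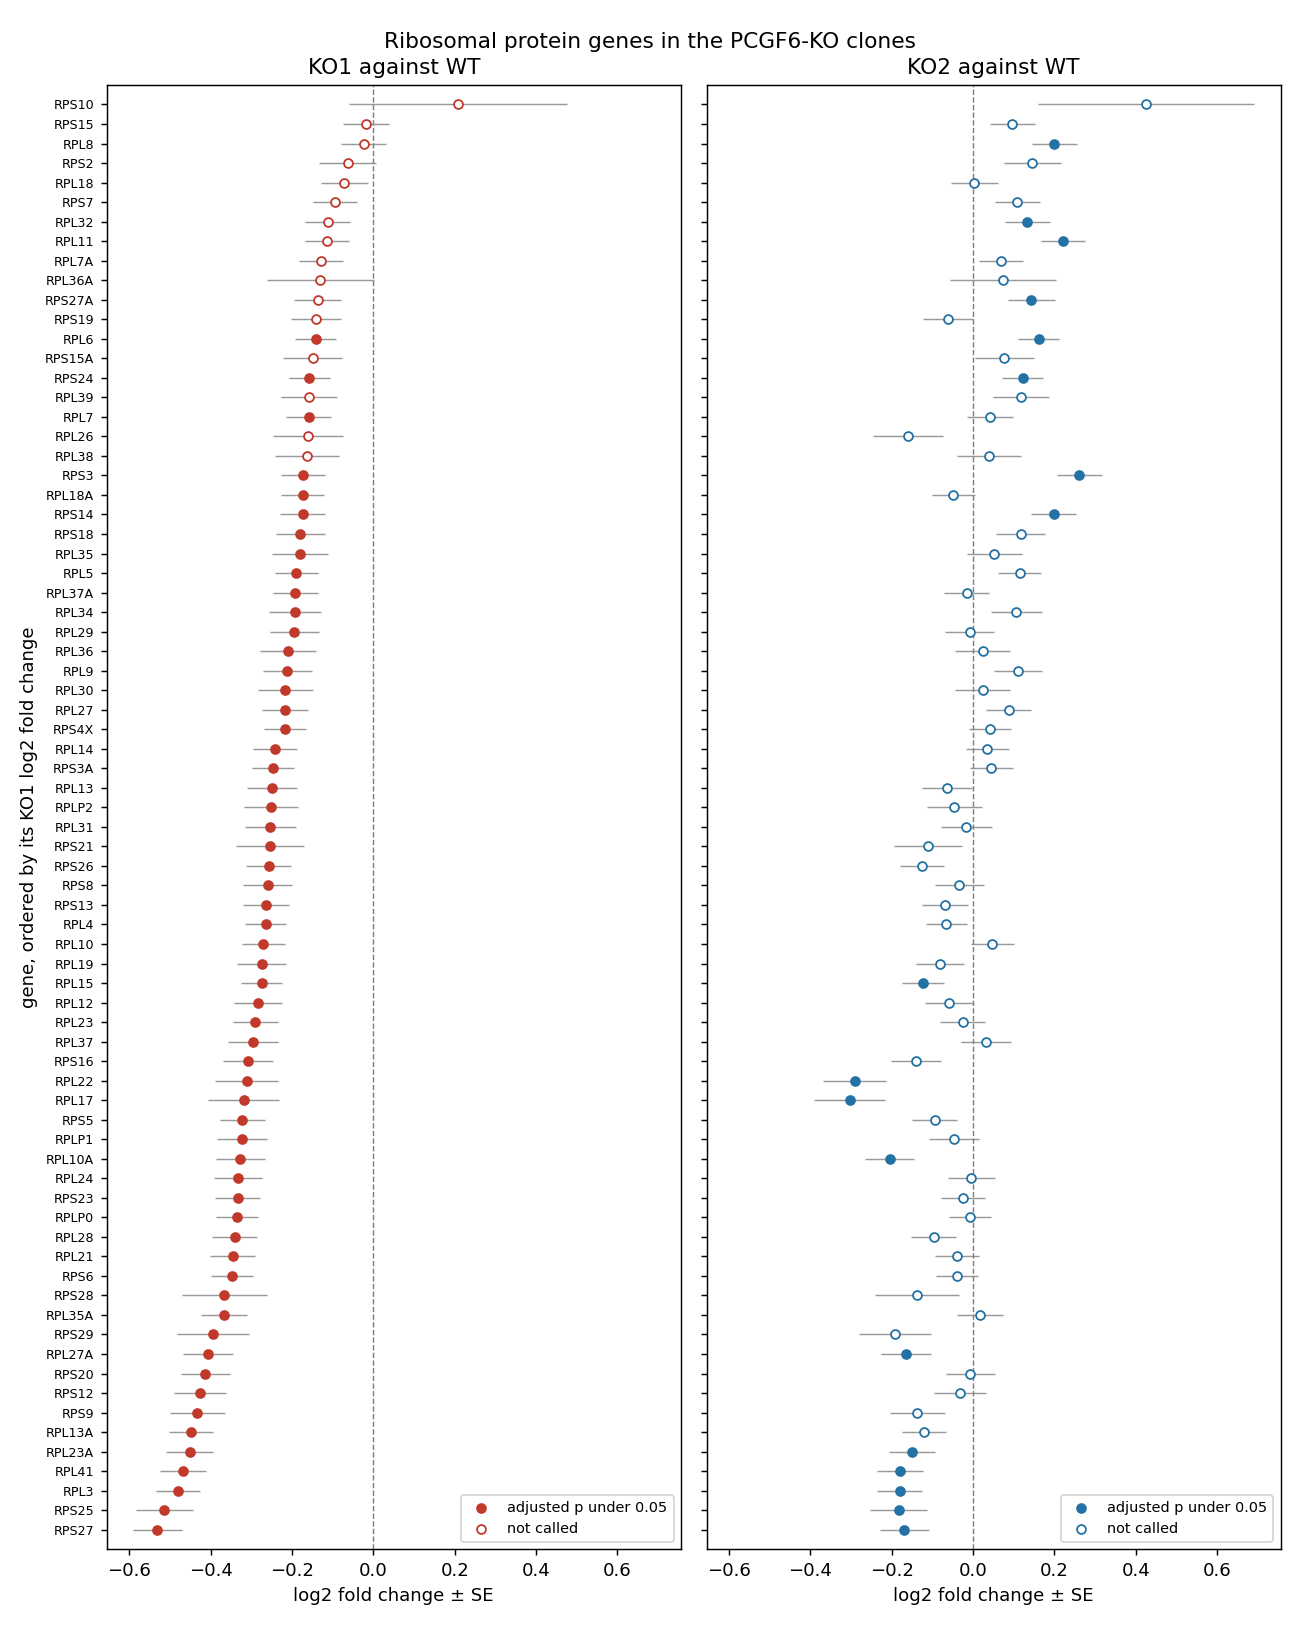
Log2 fold change against WT (horizontal axis, with its standard error) of 74 of the 76 genes in KO1 (left) and KO2 (right), in the order of the KO1 values; filled points have an adjusted p under 0.05. Of the genes drawn, 58 are filled in KO1, all left of 0, and in KO2 18 are filled, 8 to the right and 10 to the left.

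In clone KO2 fewer of the genes passed, in both directions. Of the 76, 8 were higher and 10 lower than in WT, against 26.2% and 24.2% of all tested genes, both more than the members' 10.5% and 13.2%. The median log2 fold change was -0.01, with 41 of 76 below 0, against 49.7% of all tested genes. The higher genes were RPS3, RPL11, RPS14, RPL8, RPL6, RPS27A, RPS24 and RPL32. The lower genes were RPL22, RPL17, RPL10A, RPL3, RPL41, RPS27, RPL27A, RPS25, RPL23A and RPL15. Of these 18, RPL8, RPL6, RPS24, RPL32, RPL10A, RPL27A, RPL23A and RPL15 are named because they passed the test, after their values were seen. RPS3, a small-subunit protein that also takes part in DNA repair, had 743 and 706 CPM in WT, 659 and 626 in KO1 and 903 and 834 in KO2, and its log2 fold change in KO2 was 0.26 (SE 0.05, adjusted p = 0.000245). Both KO2 libraries were above, and both KO1 libraries below, the WT libraries. RPS14, whose reduced dose underlies the anaemia of the myelodysplastic syndrome with a deletion on chromosome 5, had 466 and 446 CPM in WT, 413 and 395 in KO1 and 539 and 507 in KO2, with 0.20 (SE 0.05, adjusted p = 0.0038) in KO2. The RPS14 call in KO2 was lost without WT replicate 2 or KO2 replicate 1 (edgeR adjusted p = 0.0924 and 0.0645). RPS3 and RPS14 passed as lower in KO1, but not without WT replicate 1 (0.149 and 0.144) or KO1 replicate 2 (0.104 and 0.0928). Of the lower genes in KO2, RPS25, RPS27, RPL3 and RPL41 did not pass without WT replicate 1 (0.209, 0.103, 0.0844 and 0.196) or without KO2 replicate 2 (0.238, 0.238, 0.0659 and 0.166), and RPS27 also not without WT replicate 2 (0.0804). The RPS25 call in KO2 was also lost with DESeq2 (0.338) and with at least 10 counts in every library (0.0529).

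Of the 10 genes lower in KO2, 10 were also lower in KO1, and of the 8 higher in KO2, 4 were lower in KO1 (RPS3, RPS14, RPL6 and RPS24), with the same WT libraries in both comparisons. The KO2 counts depended on the processing and on single libraries. A fit blocked on replicate number gave 14 higher and 16 lower, upper-quartile normalization 4 and 18, DESeq2 5 and 6, a stricter filter (10 or more counts in each library) 9 and 6, and a fit without WT replicate 1 gave 4 and 2. Without WT replicate 2 there were 3 higher genes, without KO2 replicate 1 there were 2, and without KO2 replicate 2 there were 2 lower genes.

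The clones were then compared with each other, which asks directly whether the change from WT differed between them. KO2 was higher than KO1 in 59 of the 76 genes and lower in 0 (0 at an unadjusted p under 0.05, where 14.7% of all tested genes were, and 0 with DESeq2), against 10.7% and 8.82% of all tested genes. The log2 difference was above 0 in all 76, while it was below 0 in 49% of all tested genes, with a median over the members of 0.24, and the libraries did not overlap in 69 genes, against 28.9% of all tested genes. Without KO2 replicate 1 the count was 30, and without KO1 replicate 2 it was 38, with 0 lower genes in each. The largest differences were in the small-subunit proteins RPS3 (log2 fold change 0.43, SE 0.05, adjusted p = 1.55e-06), RPS20 (0.41, SE 0.06) and RPS12 (0.40, SE 0.06), the large-subunit protein RPL35A (0.38, SE 0.06) and RPS14 (0.37, SE 0.05). RPS20 had 468 and 486 CPM in WT, 361 and 355 in KO1 and 508 and 441 in KO2. RPS12, a protein of the small subunit's beak, had 196 and 198 CPM in WT, 150.3 and 142 in KO1 and 204 and 181 in KO2. RPL35A had 283 and 285 CPM in WT, 220.1 and 220.4 in KO1 and 296 and 279 in KO2. In these 3 genes KO1 lay below the other groups and the WT and KO2 ranges overlapped, with log2 fold changes in KO2 against WT of -0.01, -0.03 and 0.02. Of the 59 genes lower in KO1 than in WT, 50 were also higher in KO2 than in KO1, and these 2 comparisons share the KO1 libraries.

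With the clones pooled, as 4 PCGF6-KO libraries against 2 WT libraries, 6 of the 76 genes were lower and 0 higher (17 lower and 0 higher at an unadjusted p under 0.05; 9 and 0 with DESeq2), against 16.6% and 20.5% of all tested genes (21.6% and 24.8% at the unadjusted p). This fit takes the 4 libraries as separate although they come from 2 clones, so its p-values mix the spread between clones with that between libraries. The median log2 fold change was -0.13. The 6 genes were RPL17 (-0.31, adjusted p = 0.0113), RPL22 (-0.30, 0.0152), RPL10A (-0.27, 0.0236), RPS29 (-0.29, 0.0379), RPL3 (-0.32, 0.0428) and RPL41 (-0.32, 0.0438), of which RPL10A was named after its values were seen. RPS25 and RPS27 had larger pooled log2 fold changes of -0.34 and -0.34 and did not pass (0.0648 and 0.0556). Both passed with DESeq2 (0.0267 and 0.0241), upper-quartile normalization (0.0394 and 0.0313), no filter on low counts (0.0156 and 0.0144) and without KO2 replicate 1 (0.0273 and 0.0162). A fit blocked on replicate number gave a count of 3, and RPL3, RPL41 and RPS29 did not pass (0.0678, 0.0606 and 0.0536). The count was 0 without either WT library, 3 without KO1 replicate 1 and 20 without KO2 replicate 1, so it rested on single libraries.

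Among the members with particular roles, the 3 proteins of the P stalk, RPLP0, RPLP1 and RPLP2, which recruits translation factors to the large subunit, were all lower in KO1. RPLP0, a gene often used as a reference in quantitative PCR, had 1714 and 1655 CPM in WT, 1388 and 1284 in KO1 and 1716 and 1636 in KO2. Its log2 fold change was -0.33 (SE 0.05, adjusted p = 5.91e-06) in KO1 and -0.01 (SE 0.05, adjusted p = 0.918) in KO2. RPLP1 and RPLP2 were at -0.32 and -0.25 in KO1 and at -0.05 and -0.05 in KO2, so that all 3 passed in KO1 and none in KO2. All 3 were higher in KO2 than in KO1. For RPLP2 the last call was lost without KO1 replicate 2 or KO2 replicate 1 (adjusted p = 0.234 and 0.398), with upper-quartile normalization (0.0598) or with DESeq2 (0.0525), and for RPLP1 without KO2 replicate 1 (0.0949). The RPLP2 call in KO1 was lost without WT replicate 1 or KO1 replicate 2 (0.0761 and 0.061).

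RPL5 and RPL11 carry the smallest large-subunit RNA into the ribosome, and when assembly fails they bind MDM2 and stabilise p53. RPL5 had 649.7 and 649.6 CPM in WT, 575 and 564 in KO1 and 728 and 679 in KO2, with log2 fold changes of -0.19 (SE 0.05, adjusted p = 0.0045) in KO1 and 0.12 (SE 0.05, adjusted p = 0.0721) in KO2. RPL11 had 512 and 505 CPM in WT, 479 and 461 in KO1 and 612 and 573 in KO2, with -0.11 (SE 0.05, adjusted p = 0.0916) in KO1 and 0.22 (SE 0.05, adjusted p = 0.00126) in KO2. Both KO2 libraries were above WT in each of these genes, and RPL11 passed the test there. RPS27A is made as a fusion with ubiquitin and is one source of the cell's ubiquitin. It had 269 and 268 CPM in WT, 242 and 247 in KO1 and 308 and 285 in KO2, with -0.14 (SE 0.06, adjusted p = 0.0552) in KO1 and 0.14 (SE 0.06, adjusted p = 0.0403) in KO2. The RPL5 call was lost without WT replicate 2 (edgeR adjusted p = 0.0527), and that of RPS27A without WT replicate 1, WT replicate 2 or KO2 replicate 1 (0.157, 0.194 and 0.322), with upper-quartile normalization (0.172) or with DESeq2 (0.0669).

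The 4 X-linked members are RPL10, RPL36A, RPL39 and RPS4X. RPL10, a late-joining protein of the large subunit, and RPS4X were lower in KO1, at -0.27 (SE 0.05, adjusted p = 0.000142) and -0.22 (SE 0.05, adjusted p = 0.00134). RPL39, at the wall of the tunnel through which the new peptide leaves, was at -0.16 (SE 0.07, adjusted p = 0.0659) and RPL36A at -0.13 (SE 0.13, adjusted p = 0.443). None of the 4 passed in KO2 against WT. RPL10, RPL39 and RPS4X were higher in KO2 than in KO1 (by 0.32, 0.27 and 0.26 on the log2 scale), and RPL39 did not pass without KO1 replicate 2 or KO2 replicate 1 (edgeR adjusted p = 0.068 and 0.0973). Of 17 members in which mutations cause Diamond-Blackfan anaemia, an inherited failure of red cell production, 10 were lower and 0 higher in KO1, 2 were higher and 2 lower in KO2, and 9 were higher in KO2 than in KO1, with medians of -0.19, 0.00 and 0.22, beside the shares of all tested genes given above.

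Not every member followed the common pattern. As a description over the 6 libraries, a gene's log2 CPM was correlated with the mean of the other 75 members, and the points share their library sizes and scaling. Pearson's r was over 0.75 in 68 members, 0.56 to 0.64 in RPS2, RPL8 and RPS15, and under 0.4 in 5, among them RPL17, RPL22, RPL26 and RPS10. In RPL17, RPL22 and RPL26 the clones hardly differed. RPL22, a large-subunit protein that regulates the splicing and level of its own paralog's mRNA, had 82.8 and 86.1 CPM in WT, 65.4 and 70.7 in KO1 and 63.9 and 74.4 in KO2. Its log2 fold change was -0.31 (SE 0.08, adjusted p = 0.00167) in KO1 and -0.29 (SE 0.08, adjusted p = 0.00273) in KO2, and 0.02 between the clones. RPL17, a protein at the exit of the peptide tunnel, had 44.3 and 46.2 CPM in WT, 35.7 and 36.9 in KO1 and 34.7 and 38.6 in KO2, with -0.32 (SE 0.09, adjusted p = 0.00387) in KO1 and -0.30 (SE 0.09, adjusted p = 0.00527) in KO2. RPL26, named here for its low r, was at -0.16 and -0.16 and did not pass in either clone (adjusted p = 0.13 and 0.128). RPL10A, another large-subunit protein lower in both clones, had 550.3 and 534 CPM in WT, 460.5 and 404 in KO1 and 485 and 455 in KO2, and its difference between the clones was 0.12 (SE 0.06, adjusted p = 0.169). In RPL22 and RPL17 both libraries of each clone lay below both WT libraries. The RPL17 calls were lost without WT replicate 2 (edgeR adjusted p = 0.0573 in KO1 and 0.055 in KO2), and those of RPL17 and RPL22 in KO2 without KO2 replicate 1 (0.104 and 0.131).

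RPS10 had log2 fold changes above 0 in both clones, 0.21 in KO1 and 0.43 in KO2, from 38 and 30 counts in WT, 46 and 43 in KO1 and 54 and 41 in KO2. It did not pass in any comparison. In the annotation 8 members share exon bases on the same strand with another protein-coding gene, in several cases a readthrough transcript, among them RPL17 (32.9% of its exon bases), RPS10 (31.5%), RPL36 (17.6%), RPL26 (14.5%), RPL36A (8.4%), RPL22 (4.95%) and RPS15A (3.26%). All 5 genes with an r under 0.4 are among these 8. Reads in shared exons can be left uncounted or assigned to the other gene, so the levels of these genes are uncertain, and the part of the overlap in their pattern was not tested.

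**Figure D3:**
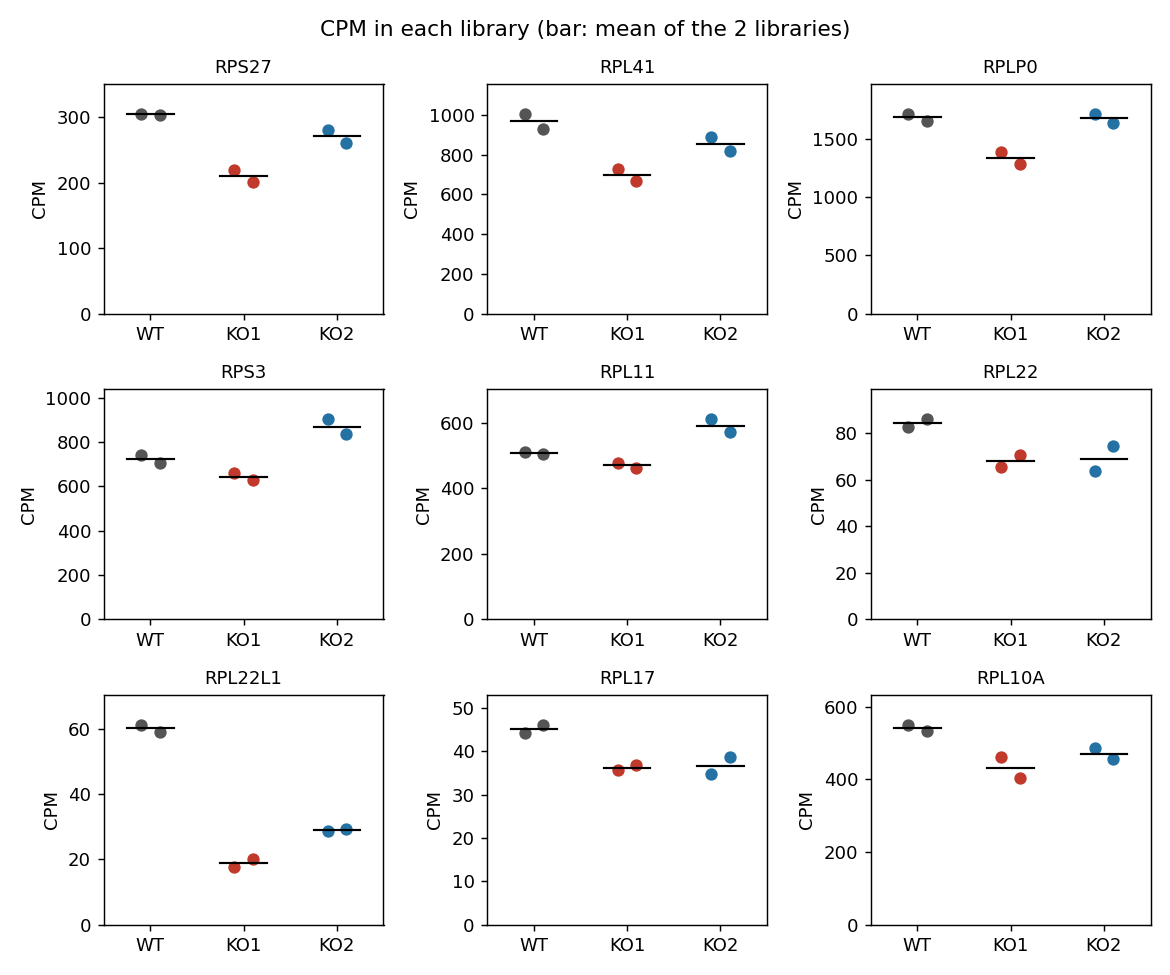
CPM (vertical axes, each from 0) of 9 genes in the 6 libraries, with the mean of each group's 2 libraries as a bar. RPS27 and RPL41 are lowest in KO1 and lie below WT in both clones, and RPLP0 is low in KO1. RPS3 and RPL11 are above WT in KO2, and RPL22, RPL22L1, RPL17 and RPL10A also lie below WT in both clones.

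Several ribosomal proteins have a second gene, a paralog. RPL22L1, the paralog of RPL22, fell by more than any member. It had 999 and 985 counts in WT, 340 and 367 in KO1 and 523 and 471 in KO2, or 60.2 ± 1.64 CPM in WT, 19 ± 1.7 in KO1 and 29.1 ± 0.361 in KO2 (mean ± SD, n = 2). Its log2 fold change was -1.67 (SE 0.09, adjusted p = 3.79e-14) in KO1, -1.05 (SE 0.09, adjusted p = 1.61e-10) in KO2 and -1.33 (SE 0.18, adjusted p = 0.000563) with the clones pooled. No library of a clone came near WT. RPL39L, the paralog of RPL39 known from testis and stem cells, rose from 295 and 267 counts in WT to 479 and 474 in KO1 and 482 and 437 in KO2, with 0.62 (SE 0.09, adjusted p = 0.000956) pooled, while RPL39 was at -0.01 (0.934). RPL36AL was higher in KO2 (0.17 (SE 0.06, adjusted p = 0.0302)) and at -0.07 in KO1. RPL7L1, RPL26L1, RPS27L and RPL3L did not pass in either clone, RPL3L at fewer than 1 CPM, and RPL10L was too low to be tested. Where a paralog and its member share sequence, reads that fit both could have been split or dropped by the authors' counting.

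Of RPSA, RACK1 and FAU, which lie outside the symbol rule, the first 2 were lower in KO1 and none passed in KO2. RPSA, a small-subunit protein also known as a laminin receptor, had 1041 ± 0.127 CPM in WT, 813 ± 19.5 in KO1 and 1088 ± 42.2 in KO2 (n = 2). It was at -0.36 (SE 0.05, adjusted p = 1.93e-06) in KO1 and 0.06 (SE 0.05, adjusted p = 0.316) in KO2. RACK1, a signalling scaffold on the small subunit, was at -0.13 (SE 0.05, adjusted p = 0.0425) in KO1. FAU, which carries a small-subunit protein fused to a ubiquitin-like protein, was at -0.14 (SE 0.07, adjusted p = 0.11). RPSA and RACK1 were higher in KO2 than in KO1.

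Other mRNAs known to carry a TOP tract were examined in a list of 25, which includes those last 3 genes and of which 24 were tested. In KO1 17 were lower and 1 higher, with a median of -0.22, in KO2 6 were lower and 3 higher, with a median of -0.02, and 16 were higher in KO2 than in KO1 and 0 lower, with a median of 0.23. The shares of all tested genes called in these comparisons were given above. EEF1A1, the elongation factor that brings aminoacyl-tRNA to the ribosome and the most abundant of the list, had 9946 ± 77 CPM in WT, 7483 ± 364 in KO1 and 9257 ± 10.5 in KO2, with -0.41 (SE 0.05, adjusted p = 2.66e-08) in KO1. TPT1, a growth-related protein, was at -0.48 (SE 0.05, adjusted p = 2.55e-08) in KO1 and 0.01 in KO2. EIF4B, a cofactor of the initiation helicase, was lower in both clones, at -0.70 (SE 0.05, adjusted p = 1.94e-11) and -0.43 (SE 0.05, adjusted p = 1.56e-07), and so was EIF2S3, a subunit of the factor that delivers the initiator tRNA (-0.53 and -0.54). VIM, an intermediate filament gene of mesenchymal cells, was the 1 gene of the list higher in KO1, with log2 fold changes of 2.63 in KO1 and 3.23 in KO2. BTF3, which binds new peptides at the ribosome, was lower in KO1 (-0.42 (SE 0.06, adjusted p = 1.66e-06)) and higher in KO2 (0.72 (SE 0.06, adjusted p = 5.98e-11)). EEF1A1, TPT1 and BTF3 were chosen after their values were seen. EEF1G was listed at 0 in all libraries.

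Host transcripts of snoRNAs, the small RNAs that guide modification of ribosomal RNA, often also start with a TOP tract. Of 14 listed, 12 were found and tested. In KO1 10 were lower and 0 higher, with a median of -0.40, in KO2 2 were lower, with a median of -0.09, and 6 were higher in KO2 than in KO1. Of all tested genes 21.1% were lower and 24.1% higher in KO1, 24.2% were lower in KO2 and 10.7% were higher in KO2 than in KO1. SNHG7 had 28.4 ± 6.03 CPM in WT, 15.8 ± 1.97 in KO1 and 18.4 ± 1.96 in KO2 and was at -0.85 (SE 0.13, adjusted p = 3.99e-06) in KO1 and -0.63 (SE 0.13, adjusted p = 0.000165) in KO2. SNHG3 was at -0.40 and -0.32, passing in both, and SNHG16 at -0.34 and -0.17, passing in KO1.

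Of 62 ribosome biogenesis genes, which build ribosomes without being part of them, 11 were lower and 7 higher in KO1, and 10 lower and 10 higher in KO2, smaller shares than the 21.1% lower and 24.1% higher of all tested genes in KO1 and 24.2% and 26.2% in KO2, which are also the shares beside which the next lists stand. Their medians were -0.05 and -0.02. MPHOSPH10, EBNA1BP2 and RIOK1, which act in the assembly of the subunits, were higher in both clones (pooled log2 fold changes 0.51, 0.43 and 0.42), and IMP3 was lower (-0.41). Of 12 RNA polymerase I genes, 3 were lower in KO1 and 2 in KO2, and POLR1B, its second largest subunit, was at -0.23 (SE 0.08, adjusted p = 0.0454) pooled. Of 24 translation factors outside the TOP list, 6 were lower and 2 higher in KO1 and 3 lower and 8 higher in KO2. EIF4A1, the initiation helicase, was at 0.53 pooled and its paralog EIF4A2 at -0.40. EIF3K was at 0.36 and EIF1AX, which helps scan for the start codon, at -0.23, and these 4 passed the pooled test. Without WT replicate 1 the pooled calls of EIF4A1, EIF3K, EIF1AX, IMP3 and POLR1B were lost (edgeR adjusted p = 0.0601, 0.0603, 0.154, 0.0754 and 0.217), and without WT replicate 2 likewise (0.183, 0.1, 0.0901, 0.129 and 0.187). That of POLR1B was also lost without KO1 replicate 1, KO2 replicate 1 or KO2 replicate 2 (0.0839, 0.0961 and 0.0537), with DESeq2 (0.0708), with no filter on low counts (0.0634) and with at least 10 counts in every library (0.0553). Among 77 tested genes of the mitochondrial ribosome, 18 were lower and 6 higher in KO1 and 20 lower and 3 higher in KO2, with medians of -0.11 and -0.07, and between the clones 6 were higher and 1 lower, with a median of 0.02.

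**Figure D4:**
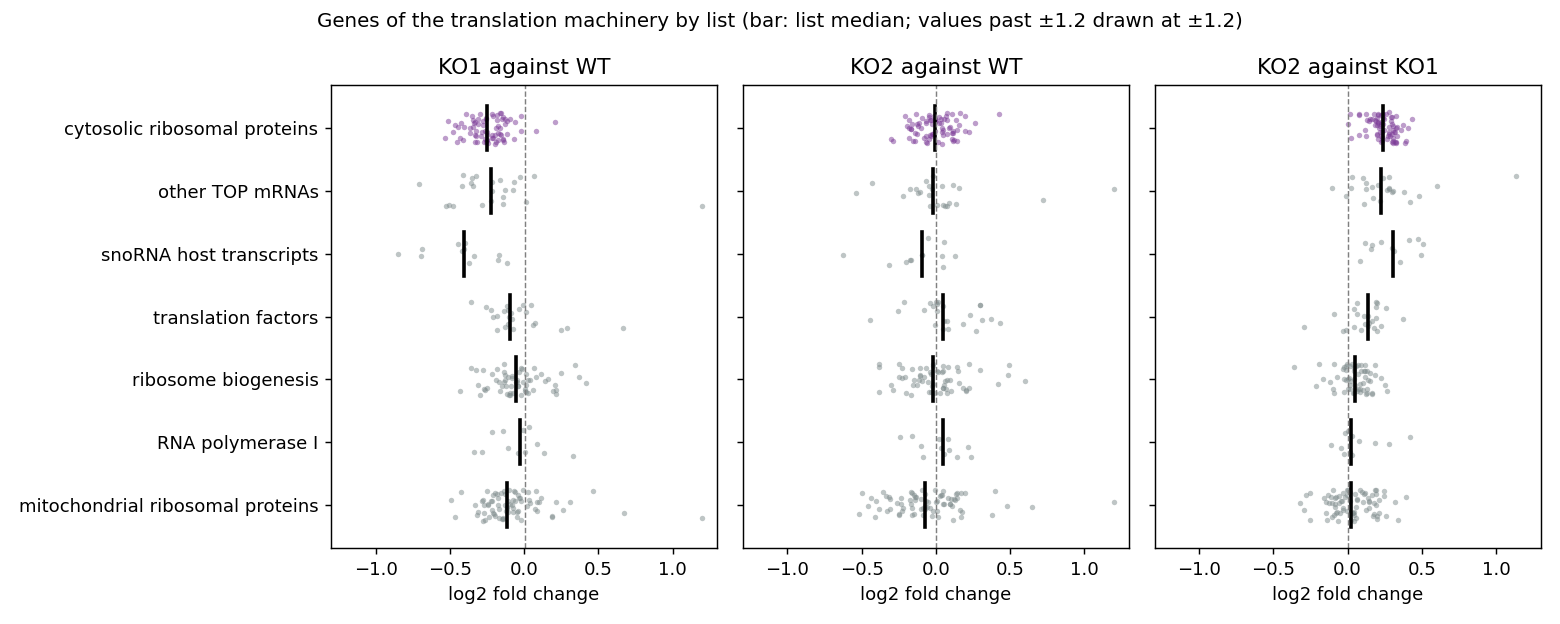
Log2 fold changes (horizontal axes) of the 76 cytosolic ribosomal protein genes and of 6 other lists, 1 point per tested gene, with list medians as black bars, the median of all tested genes as a dashed line, and values past 1.2 drawn at 1.2. The members, the other TOP mRNAs and the snoRNA hosts have medians of -0.25, -0.22 and -0.40 in KO1 and of 0.24, 0.23 and 0.31 in KO2 against KO1.

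MYC, a transcription factor known to raise ribosomal protein genes, was higher in both clones, at 0.68 (SE 0.06, adjusted p = 8.45e-10) in KO1 and 0.86 (SE 0.06, adjusted p = 6.54e-12) in KO2, and MYCL was at 1.03 and 0.96, passing in both. MYCN was higher in KO1 (0.25 (SE 0.07, adjusted p = 0.00436)) and at 0.02 in KO2. MAX, the partner of these factors and of the PCGF6 complex, was at -0.08 and 0.07 and did not pass.

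Members with and without the TOP tract at the annotated start had similar medians in KO1. The median log2 fold change in KO1 was -0.25 for the 45 members with the tract and -0.26 for the 14 without. Among other tested genes it was -0.13 for 536 genes with the same start and 0.00 for 10249 without. Between the clones these medians were 0.04 and 0.00, beside 0.28 and 0.20 for members with and without the tract. In KO2 the medians of members with and without it were -0.02 and -0.07, with 11.1% and 28.6% lower, against 24.2% of all tested genes. With the clones pooled 4.44% and 21.4% were lower, against 16.6% of all tested genes. As a description of 300 bases around the same 59 starts (250 before and 50 from it on), searched on both strands, CACGTG, the site of MAX-containing dimers, was in 3 members (5.08%, against 8.94% of all 14473 windows) and GCGGGAA, an E2F6-type site, in 5 (8.47%, against 9.09%). CCGGAAG, an ETS-type site, was in 21 (35.6%, against 15.1%), AAGATGG, a YY1-type site, in 8 (13.6%, against 6.7%), and TATAAA in 5 (8.47%, against 9.42%). Members are short and abundant, so other tested genes were set beside them by transcript length and level. The 620 with transcripts under 1000 bases had a median of -0.05 in KO1 and 0.07 between the clones, and the 492 at 300 CPM or more had -0.08 and 0.09. The 57 with under 1000 bases and at least 100 CPM had 0.02 and 0.13.

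Levels between members are compared per length, as RPKM over the exon length given with the counts. In WT they ran from 982 ± 170 RPKM (SD, n = 2) for RPS2 to 0.876 ± 0.161 for RPS10. RPS2 was followed by RPL13A (943 ± 21.3) and RPL41 (889 ± 50.6). These 3 did not differ beyond their spread, since the WT libraries had 1102 and 862 RPKM for RPS2, 958 and 928 for RPL13A and 925 and 854 for RPL41. At the low end RPS29 had 4.02 ± 0.187 RPKM and RPL36A 2.76 ± 0.179, and their ranges did not meet. RPS2 did not pass in KO1 (-0.06) and overlapped WT there. RPS29 was lower in KO1 (-0.39 (SE 0.09, adjusted p = 0.000674)).

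The exon length is the union of all annotated exons, and it changes the order. For RPS29 it is 9845 bases, against 295 in the representative transcript, and per base of that transcript RPS29 moved from rank 74 to 63 of 76. The rank moved by over 10 for 24 members. The range below about 20 RPKM holds 9 genes, of which 7 are among the 8 with a shared exon. A further source of uncertainty is the 1058 pseudogene rows named after members, whose counts were 0.138% to 0.166% of a library. For RPS28 these rows held 1058% of the gene's own counts, nearly all in RPS28P7, and for RPS10 46.8%. Across the members the median was 0.214%. Of the 69 pseudogene rows tested, 6 were lower and 6 higher in KO1, against 21.1% and 24.1% of all tested genes. Between the clones 10 were higher and 1 lower in KO2 than in KO1, against 10.7% and 8.82% of all tested genes.

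**Figure D5:**
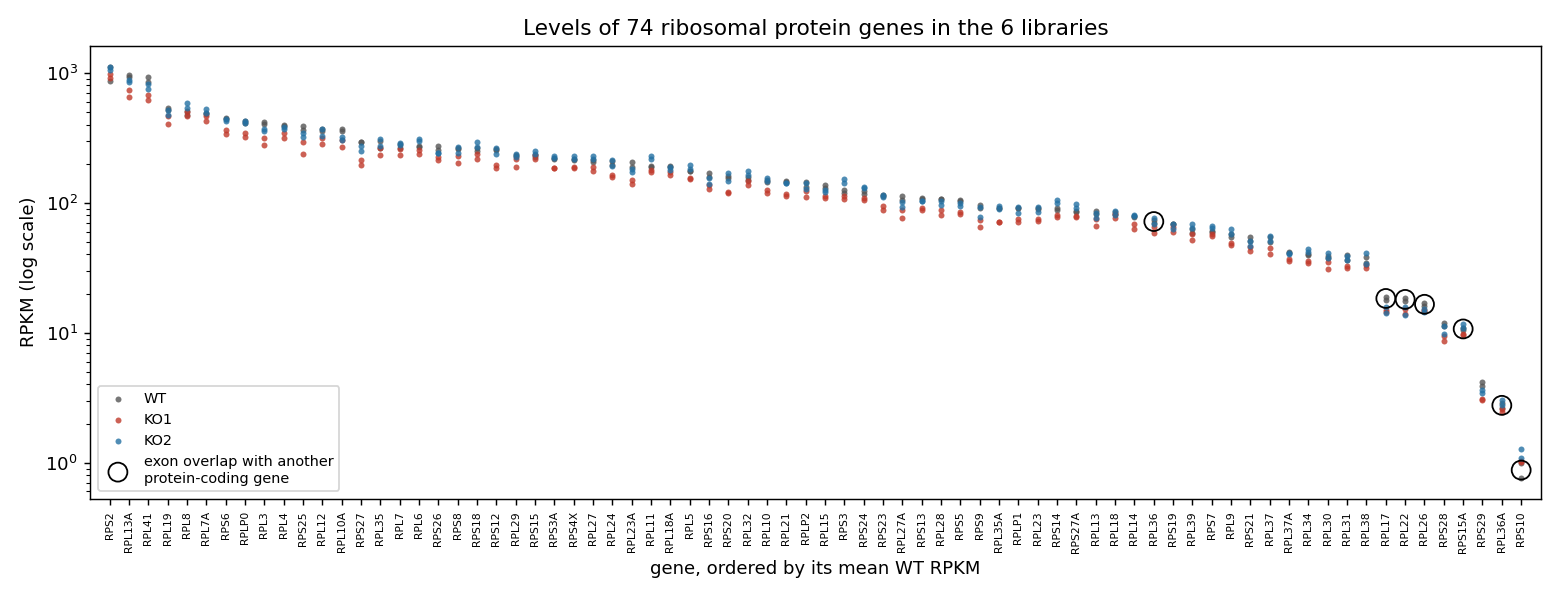
RPKM (vertical axis, log scale) of 74 of the 76 genes in each of the 6 libraries, ordered by the WT mean, with rings around the 7 of them that share exons with another protein-coding gene. RPS2 is highest at 982 RPKM in WT, and 6 of the 7 ringed genes are among the 8 lowest drawn.

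The clones also differed from WT in markers of cell state, and the part of this in the results above was not tested. Pluripotency markers (10 genes) summed to 8587 to 8960 CPM in WT, 6665 to 6768 in KO1 and 6069 to 6238 in KO2. In KO1 6 of them were lower and 1 higher, and in KO2 5 were lower and 2 higher. The study reports no significant change in RNA or protein of OCT4 and NANOG. Mesendoderm markers summed to 6.83 to 7.43 CPM in WT, 735 to 740 in KO1 and 1003 to 1020 in KO2, with 11 of 11 tested higher in each clone. Fibroblast markers (7 genes) summed to 838 to 848 CPM in WT, 1722 to 1750 in KO1 and 1961 to 2045 in KO2. Of these, 6 were higher and 1 lower in each clone. Neuroectoderm markers (8 genes, 5 tested) summed to 371 to 419, 647 to 723 and 673 to 760 CPM. Their calls went both ways, with 3 higher and 1 lower in KO1 and 2 higher and 2 lower in KO2. The shares of all tested genes called were given above. Blood markers were at 1.32 to 2.20 CPM in all libraries. In bulk RNA, fewer cells of one kind and less RNA per cell cannot be told apart, and CPM give no amount of RNA per cell.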

How the data were processed

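RNA-seq counts of 6 libraries were used (WT, KO1 and KO2, 2 each), and the other 12 samples of the series are ChIP-seq and were not analysed here. The authors trimmed reads with Trim Galore (0.6.2), aligned them to GRCh38 with HISAT2 (2.1.0) and assigned them to genes with featureCounts; the deposited values are raw counts with an exon length per gene. The annotation release, strand setting and handling of reads with several matches are not given in the sources used here, and they affect members with pseudogenes, paralogs or overlapping genes. The table held 0 columns of other samples.

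Genes were filtered with filterByExpr (17672 of 57133 kept), scaled by TMM and tested with glmQLFit and glmQLFTest of edgeR (4.0.16, limma 3.58.1, R 4.3.3). The 4 PCGF6-KO libraries were compared with WT in a 2-group fit, and the clones with WT and with each other in a 3-group fit. Calls needed a Benjamini-Hochberg adjusted p under 0.05 over all tested genes, and the fold size of the study's methods (0.6 on the log2 scale) was also applied. The edgeR fit was also run on simulated counts with noise independent between genes. That does not cover genes that move together, and its outcome is not given here. Alternatives were RLE and upper-quartile scaling, TMM factors without the members, no filter, at least 10 counts in every library, DESeq2 (1.42.0), a replicate block and each library left out. Library medians used log2 of CPM plus 0.1.

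Gene positions and overlaps are from GENCODE release 44 and start sequences from RefSeq, both on GRCh38. Named members are the 6 largest pooled changes in each direction with one sign in both clones, the 4 highest and 4 lowest in WT, the P stalk, RPL5, RPL11, RPS27A, the X-linked members and the 5 with the largest difference between the clones. Of other lists the 4 largest called pooled changes, the paralogs and the MYC factors are named. Some genes that these rules select are not reported here. The members, the lists and these rules were chosen with earlier results of these data known. Counts per library ran from 15877396 to 18918609, and the precision also depends on the spread between libraries.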

Additional observations from a re-analysis of the deposited data

Results flagged for a closer look

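The change from WT differed between the clones in 59 of the 76 ribosomal protein genes, by the edgeR test of KO2 against KO1. This is the test of the difference itself because both clones are set against the same WT libraries. Of all tested genes 10.7% were higher and 8.82% lower in KO2 than in KO1, also the shares beside which the next paragraph stands. The KO2 effect minus the KO1 effect, on the log2 scale, was as follows in the named members that passed. In the large subunit it was RPL3 0.30, RPL41 0.29, RPL13A 0.33, RPLP0 0.33, RPLP1 0.28, RPLP2 0.21, RPL5 0.30, RPL11 0.33, RPL10 0.32, RPL39 0.27 and RPL35A 0.38. In the small subunit it was RPS25 0.33, RPS27 0.36, RPS2 0.21, RPS27A 0.28, RPS4X 0.26, RPS3 0.43, RPS20 0.41, RPS12 0.40 and RPS14 0.37. The RPS2 call was lost with DESeq2 (adjusted p = 0.46), upper-quartile normalization (0.0676), without KO1 replicate 2 (0.177) and without KO2 replicate 1 (0.21), and that of RPS25 with DESeq2 (0.0798). All of these differences are above 0, and the 2 libraries of one clone stand against the 2 of the other in each.

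Among named genes outside the 76, the same difference was RPSA 0.42 and RACK1 0.22 in cytosolic ribosome proteins with other names, and RPL22L1 0.62 and RPL36AL 0.24 in paralogs. It was VIM 0.60 and EIF4B 0.28 in the list of other TOP mRNAs and 0.18 in MPHOSPH10, a ribosome assembly factor. MYC differed by 0.18 and MYCN by -0.23, in opposite directions. PCGF6 itself differed by 0.90, with 99 and 103 counts in KO1 and 187 and 159 in KO2. Each group held 2 libraries, too few for a search for outlying libraries.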

How the results depend on the processing

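The counts of members lower in KO1 and higher in KO2 than in KO1 kept their direction under every alternative run. The shares of all tested genes called in the main fit were given with each comparison above. Pooled lower members were 6, and 15 with upper-quartile scaling, 12 with no filter on low counts and 3 with the replicate block. In KO2 against WT 8 were higher and 10 lower, against 4 and 18 with upper-quartile scaling, 5 and 6 with DESeq2, 14 and 16 with the replicate block, and 6 lower with at least 10 counts in every library. Nothing in the labels says what the replicate numbers share. The deviations of same-numbered libraries had a Pearson's r of 0.0366, 0.06 and 0.127 and a Spearman's rho of 0.115, 0.111 and 0.232 (WT with KO1, WT with KO2 and KO1 with KO2, across 14850 genes, which are not independent replicates), so whether the numbers pair the libraries was not settled. The block gave 67 lower in KO1 and 66 higher in KO2 than in KO1 and, for the pooled fit, the 3 above. With each library left out, pooled lower members ranged from 0 to 20, KO1 lower from 41 to 62, KO1 past a log2 fold of 0.6 from 0 to 1, KO2 higher from 2 to 12 and lower from 2 to 13, and KO2 above KO1 from 30 to 64. Fits that leave a group with 1 library assume that it varies like the others.

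Pooled log2 fold changes near 0 changed sign without passing in either fit. With upper-quartile scaling they were RPS27A -0.024 and RPS14 -0.011, and with the stricter filter RPL39 0.0056, RACK1 0.0041 and MAX 0.013. Over the fits that left out a library, RPS2 from -0.12 to 0.23, RPL36A from -0.093 to 0.043, RPL5 from -0.091 to 0.035, RPL11 from -0.0029 to 0.14, RPS27A from -0.050 to 0.067, RPL39 from -0.073 to 0.065, RPS3 from -0.028 to 0.15, RPS14 from -0.048 to 0.10, RPL3L from -0.10 to 0.50, RACK1 from -0.053 to 0.043 and MAX from -0.092 to 0.083 crossed 0. The cause was not tested. RPS10, with 30 to 54 counts a library, is the member that depth limits most. Upper-quartile scaling moved the median of all genes by under 0.1.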

Other observations

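Free RPL5 and RPL11 are known to stabilise p53, so 12 genes that p53 is known to activate were examined, of which 11 were tested. With the clones pooled 3 were higher and 1 lower, in KO1 also 3 and 1, and in KO2 5 and 1. Of all tested genes 20.5% were higher and 16.6% lower pooled, 24.1% and 21.1% in KO1 and 26.2% and 24.2% in KO2. The list had median log2 fold changes of 0.06, -0.06 and 0.21. CDKN1A, the cell cycle inhibitor p21, had a pooled log2 fold change of 2.84 (SE 0.60, edgeR adjusted p = 0.00545). BBC3, a killer protein of the mitochondrial pathway, was at 0.78 (SE 0.21, adjusted p = 0.0176) and ZMAT3, an RNA-binding protein, at 0.53 (SE 0.18, adjusted p = 0.0441). RRM2B, a subunit of ribonucleotide reductase, was lower at -0.51 (SE 0.11, adjusted p = 0.0053). The summed level of the 12 genes was 215 to 228 CPM in WT, 194 to 217 in KO1 and 218 to 228 in KO2. The CDKN1A, BBC3 and ZMAT3 calls were lost without WT replicate 1 (adjusted p = 0.0606, 0.0673 and 0.221). Without WT replicate 2 those of BBC3, ZMAT3 and RRM2B were lost (0.143, 0.155 and 0.058), and that of ZMAT3 also without KO1 replicate 2 or KO2 replicate 2 (0.0607 and 0.0752) and with upper-quartile normalization (0.0534).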
